A study of Mus musculus with 4 samples.

Results

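The enzymes that break glucose down to pyruvate and lactate (glycolysis), those that rebuild glucose (gluconeogenesis) and those that oxidise acetyl units in mitochondria (the citrate cycle) were followed in small-intestinal epithelium of mice with a constitutively active IKKb. The set holds 41 genes, chosen by name from the standard pathway and taken in pathway order: 3 sugar kinases, 5 genes of upper and 6 of lower glycolysis, 2 lactate dehydrogenases, 3 genes of the pyruvate dehydrogenase complex, 6 of gluconeogenesis, 15 of the citrate cycle and malic enzyme 1. A probe was present for 40 of them, with 69 probes in all, and 38 were bright enough to be tested, among 12437 genes tested in the whole series. Pck1, the cytosolic phosphoenolpyruvate carboxykinase, was not analysed here. Pfkl, the liver phosphofructokinase, was well above background on 0 of the 4 arrays, and Idh2, the mitochondrial NADP-linked isocitrate dehydrogenase, was well above background on 1 array, IKKb(EE)IEC 2, so neither was tested. Pkm is listed in the files under its older symbol Pkm2.

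The tested mice were IKKb(EE)IEC animals, which carry an IKKb form made constantly active in intestinal epithelial cells by replacing its activation-loop serines with glutamates. The controls were WT littermates. Each genotype has 2 samples of freshly isolated small-bowel cells, stated to be biological replicates, and each sample's Cy3-labelled RNA was read on 1 single-colour Agilent array. The promoter driving the transgene, the number of mice behind a sample and the age and sex of the mice are not given in the sources used here. IKKb is the kinase that starts canonical NF-kB signalling by marking the inhibitory IkB proteins for destruction.

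Glycolysis begins when a hexokinase traps glucose as glucose 6-phosphate, and it ends when pyruvate kinase makes pyruvate, which lactate dehydrogenase reduces or pyruvate dehydrogenase passes to the citrate cycle. Gluconeogenesis runs most of these steps backwards and needs its own enzymes where glycolysis is irreversible: pyruvate carboxylase, phosphoenolpyruvate carboxykinase, fructose bisphosphatase and glucose 6-phosphatase. The small-intestinal epithelium is known for oxidising glutamine and for turning fructose from the diet into glucose and lactate.

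In IKKb(EE)IEC epithelium 4 of the 38 tested genes rose and 1 fell. Hexokinase 2 (Hk2) rose 10.7-fold and fructose bisphosphatase 1 (Fbp1) rose 5.19-fold. Glucose 6-phosphatase (G6pc) rose 2.06-fold and the liver and red cell type pyruvate kinase (Pklr) rose 2.01-fold. Hexokinase 1 (Hk1) was 1.87-fold lower on the brighter of its probes, while its dimmer probe went the other way. None of the 14 tested citrate cycle genes and none of the 3 pyruvate dehydrogenase genes passed the test. In the citrate cycle, Dlst passed in 6 of 13 other ways of processing the data.

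These calls are at an adjusted p below 0.05 in limma over all 12437 genes. The share of the tested members called, 13.2%, was near the 15.2% of all tested genes called in either direction (8.02% higher, 7.2% lower), so the set as a whole was not called more often than the array. The groups did not overlap for 26 members, 10 higher and 16 lower, which is 68.4% of them against 69.1% of all tested genes (28.3% higher, 40.8% lower). An unadjusted p below 0.05 in limma was reached by 7 members higher and 6 lower. Over all 12437 tested genes it was reached by 2056 higher and 2688 lower, and counts at that p below are read beside these. The median log2 fold change of the members was 0.02 and that of all tested genes was -0.12. Values below are log2 signals relative to the 75th percentile of the array, and a fold change is the mean of IKKb(EE)IEC minus the mean of WT with its standard error from limma (n = 2 samples in each genotype). A level is read only against the same probe on another array, since probes differ in brightness for the same amount of RNA.

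**Figure D1:**
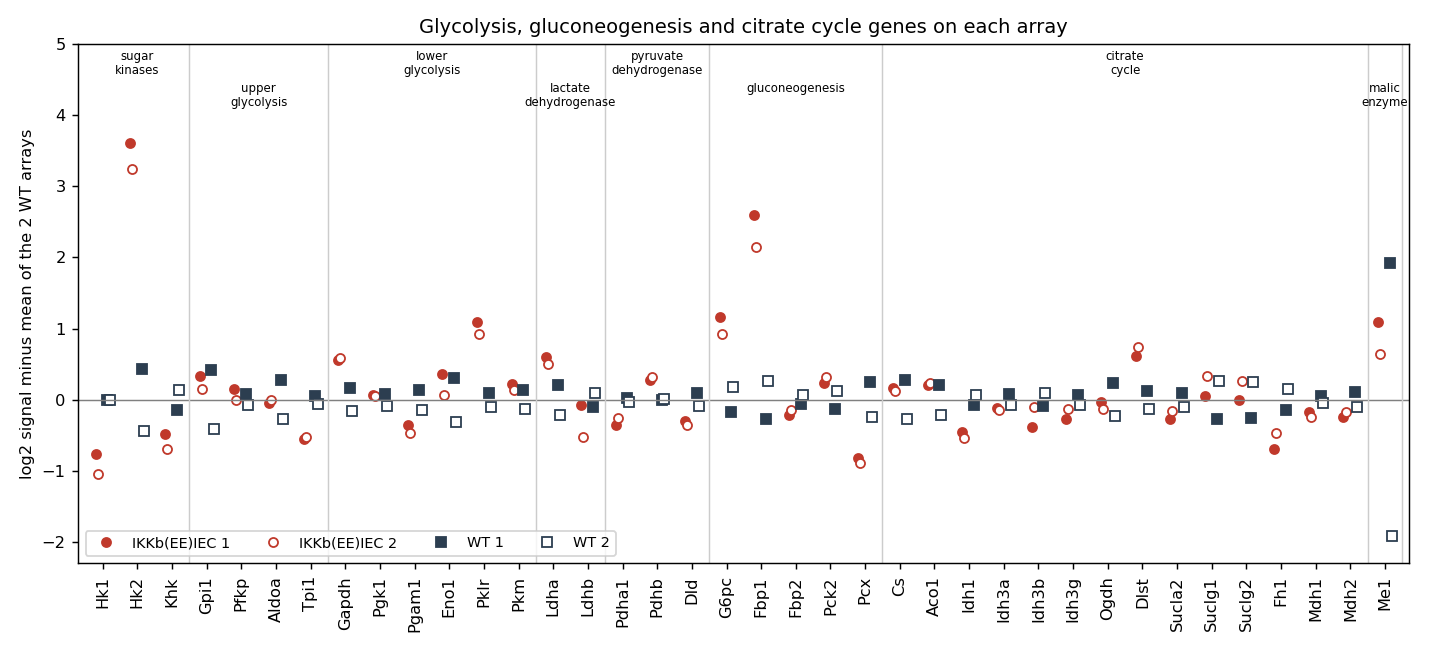
Log2 signal of each of the 38 tested genes on each array, less the mean of the 2 WT arrays, in pathway order. IKKb(EE)IEC arrays are circles and WT arrays are squares. Hk2, Fbp1, G6pc and Pklr stand above both WT squares, Hk1 stands below them, and the 2 WT squares of Me1 lie far apart at 2.58 and -1.25 before the mean is taken off.

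The proximal promoters of the 4 genes that rose are shown because each was called higher while most of the pathway did not pass the test. Whether the 4 genes share a regulator was not tested. They are the 250 bases before the annotated start, from RefSeq on GRCm38.p6, written 5′ to 3′ on the gene's strand. Of the 41 genes 40 had an entry, and Pklr had 2, one for each of its annotated starts. Hk2 lies at chr6:82774455-82774704 on the minus strand, the first Pklr start at chr3:89135892-89136141 and the second at chr3:89136373-89136622 on the plus strand, G6pc at chr11:101367466-101367715 on the plus strand and Fbp1 at chr13:62888283-62888532 on the minus strand. Capitals mark matches, on either strand, to the motifs described after the sequences.
Hk2: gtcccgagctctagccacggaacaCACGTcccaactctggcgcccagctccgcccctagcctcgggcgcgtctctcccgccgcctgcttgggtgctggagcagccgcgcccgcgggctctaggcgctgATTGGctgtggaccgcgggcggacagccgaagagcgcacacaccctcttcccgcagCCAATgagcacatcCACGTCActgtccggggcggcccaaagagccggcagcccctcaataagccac
Pklr, first start: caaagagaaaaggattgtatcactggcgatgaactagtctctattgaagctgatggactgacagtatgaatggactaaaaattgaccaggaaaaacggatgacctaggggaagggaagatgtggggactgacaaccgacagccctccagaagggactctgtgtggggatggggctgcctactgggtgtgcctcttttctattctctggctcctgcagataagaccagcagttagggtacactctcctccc
Pklr, second start: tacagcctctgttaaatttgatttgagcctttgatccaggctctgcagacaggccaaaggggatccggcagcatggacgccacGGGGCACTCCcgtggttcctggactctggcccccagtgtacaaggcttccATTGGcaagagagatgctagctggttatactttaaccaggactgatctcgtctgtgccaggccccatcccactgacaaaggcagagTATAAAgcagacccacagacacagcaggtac
G6pc: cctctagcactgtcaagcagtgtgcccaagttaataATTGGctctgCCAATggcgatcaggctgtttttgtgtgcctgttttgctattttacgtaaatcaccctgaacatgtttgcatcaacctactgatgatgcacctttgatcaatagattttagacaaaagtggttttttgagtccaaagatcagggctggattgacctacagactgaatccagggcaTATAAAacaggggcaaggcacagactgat
Fbp1: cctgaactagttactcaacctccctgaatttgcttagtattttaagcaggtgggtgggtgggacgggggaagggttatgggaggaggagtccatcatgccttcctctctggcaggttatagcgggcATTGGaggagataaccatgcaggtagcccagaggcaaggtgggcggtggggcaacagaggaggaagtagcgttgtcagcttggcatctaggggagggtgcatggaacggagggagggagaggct

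The motifs searched on both strands were the E-box CACGTG, the hypoxia response core ACGTG, the CRE half-site TGACG, the CCAAT box, the TATA box TATAAA and the 10-letter NF-kB consensus. Hk2 held the hypoxia response core 226 and 52 bases before the start, and the second of these overlaps a CRE half-site at 50 bases. It also held a CCAAT box at 122 and at 66 bases. The hypoxia response core occurs in 16.6% and the CRE half-site in 17.8% of the 32851 promoters of this length. The second Pklr promoter held a CCAAT box at 117 bases, a TATA box at 31 bases and an NF-kB consensus match at 167 bases, and the first held none of the 6 motifs. G6pc held a CCAAT box at 214 and at 204 bases and a TATA box at 29 bases, and Fbp1 held a CCAAT box at 124 bases. A CCAAT box is found in 33.8%, a TATA box in 12.4%, an NF-kB match in 7.3% and an E-box in 6.0% of all these promoters. The matches describe letters in the window and were not tested for binding.

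Sugar kinases showed the widest range of any step. Hk2, the insulin-responsive and inducible hexokinase that docks on mitochondria, had 3.05 and 2.70 on the IKKb(EE)IEC arrays, against -0.11 and -0.99 on the WT arrays. Both IKKb(EE)IEC arrays lay well above both WT arrays, and the gap exceeded the spread within either genotype. The difference was 3.43 ± 0.33 (SE) with a 95% interval of 2.61 to 4.25 and an adjusted p of 0.00499. Its single probe lies at chr6:82690720-82690779 (mm8). In the authors' value table, a linear intensity scale, Hk2 had 838.0 and 659.9 in IKKb(EE)IEC, against 180.0 and 149.5 in WT, a log2 difference of 2.18, against 3.43 above.

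Hk1, the hexokinase of most tissues, had 3.83 and 3.55 on the IKKb(EE)IEC arrays, against 4.59 and 4.59 on the WT arrays for its brighter probe (chr10:61666986-61667045, mm8). Both IKKb(EE)IEC arrays were lower and the difference was -0.90 ± 0.18, adjusted p 0.0357. A second Hk1 probe (chr10:61664525-61664584, mm8) had 0.95 and 0.81 in IKKb(EE)IEC, against -0.07 and -0.96 in WT. That probe moved up by 1.40, with an adjusted p of 0.0441 in a fit over all 16394 probes, where 13.9% of probes were called. The mean over the probes of Hk1 gave 0.25, which was not called, so no single direction can be given for the gene. Khk, ketohexokinase, which phosphorylates fructose, had a difference of -0.59 with an adjusted p of 0.0891, and both IKKb(EE)IEC arrays lay below both WT arrays.

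Upper glycolysis, from glucose 6-phosphate to the triose phosphates, had 4 tested genes, of which limma called 0, and 1 had an unadjusted p below 0.05. That gene was Tpi1, triosephosphate isomerase, at -0.54. Gpi1 (glucose phosphate isomerase), Pfkp (platelet phosphofructokinase) and Aldoa (aldolase A) differed by 0.24, 0.08 and -0.03, and their groups overlapped. Pfkp was not uniform across its probes. The representative probe had 4.40 and 4.24 in IKKb(EE)IEC, against 4.32 and 4.16 in WT, while a second probe had 2.03 and 2.45 in IKKb(EE)IEC, against -0.08 and 0.79 in WT. The second probe differed by 1.88 with an adjusted p of 0.0254 in the probe-level fit.

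Lower glycolysis, from glyceraldehyde 3-phosphate to pyruvate, held 6 tested genes, and Pklr was the one that passed. Pklr had 1.62 and 1.46 on the IKKb(EE)IEC arrays, against 0.63 and 0.44 on the WT arrays. Both IKKb(EE)IEC arrays were higher, by 1.01 ± 0.18 with a 95% interval of 0.56 to 1.45 and an adjusted p of 0.0265 (chr3:89230912-89231430, mm8). The other pyruvate kinase gene, Pkm, which makes the M forms, differed by 0.18, with an interval of -0.27 to 0.63. Gapdh, glyceraldehyde phosphate dehydrogenase, differed by 0.57 with an adjusted p of 0.0905 and did not overlap between genotypes. Pgk1 (phosphoglycerate kinase), Pgam1 (phosphoglycerate mutase) and Eno1 (enolase) differed by 0.06, -0.41 and 0.22.

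**Figure D2:**
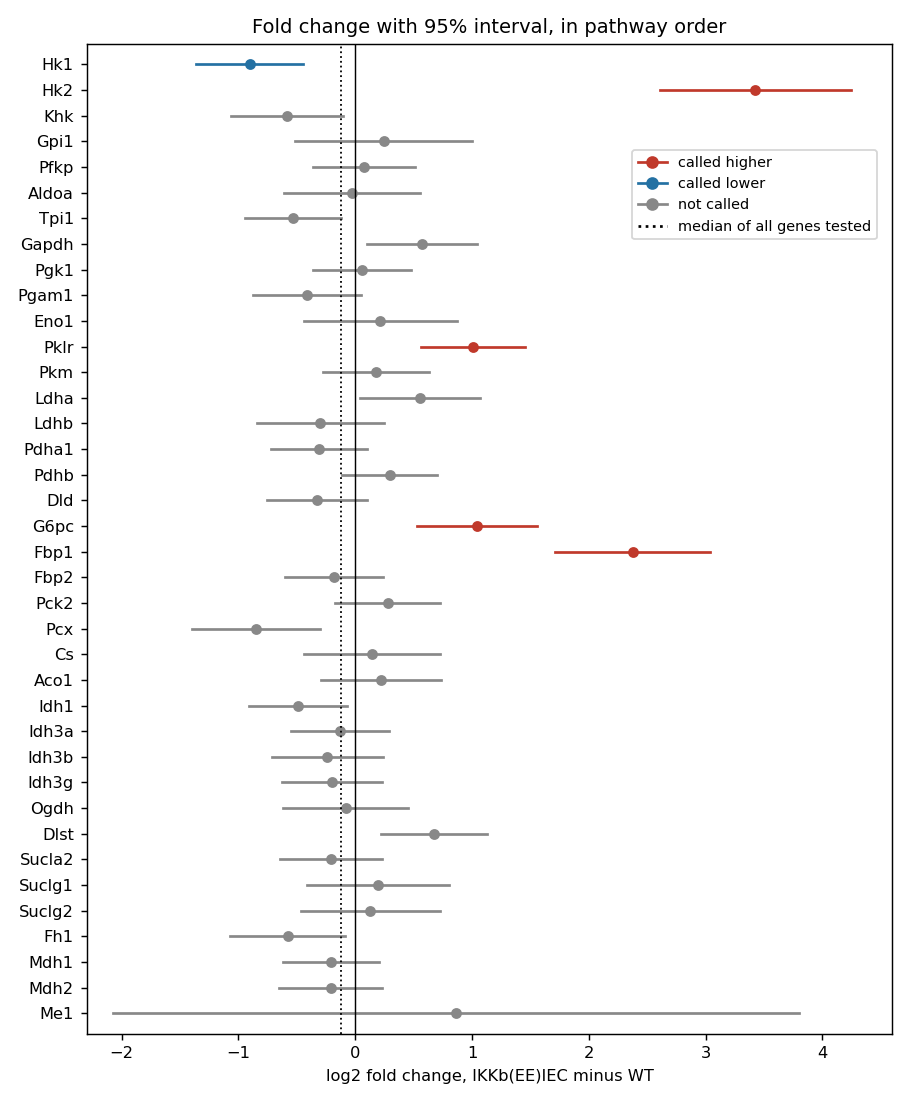
Log2 fold change, IKKb(EE)IEC minus WT, of each tested gene with its 95% interval from limma, in pathway order from top to bottom. Red marks the 4 genes called higher, blue the 1 called lower and grey the 33 not called, and the dotted line is the median of all tested genes, -0.12. The interval of Me1 runs from -2.07 to 3.80.

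At the pyruvate branch limma called neither lactate dehydrogenase and none of the 3 pyruvate dehydrogenase genes, and 1 of these 5 genes, Ldha, had an unadjusted p below 0.05. Ldha, the muscle-type subunit that favours lactate formation, had 9.11 and 9.02 on the IKKb(EE)IEC arrays, against 8.72 and 8.30 on the WT arrays. Its difference was 0.55 with an adjusted p of 0.115, and a second Ldha probe differed by 0.70. Ldhb, the heart-type subunit, differed by -0.30 and was not well above background on 1 WT array. Pdha1 and Pdhb, the subunits of the first enzyme of pyruvate dehydrogenase, differed by -0.31 and 0.30, and Dld, the dihydrolipoamide dehydrogenase shared with the oxoglutarate complex, by -0.33. Each of these 3 had groups that did not overlap and an interval that contains 0.

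Gluconeogenesis contributed 2 of the 4 genes that rose. Fbp1, which removes a phosphate from fructose bisphosphate, had 7.09 and 6.63 on the IKKb(EE)IEC arrays, against 4.22 and 4.75 on the WT arrays. The genotypes were far apart relative to the replicates, with a difference of 2.38 ± 0.27, an interval of 1.71 to 3.04 and an adjusted p of 0.00757 (chr13:62874438-62874497, mm8). G6pc, which releases free glucose, had 3.51 and 3.27 in IKKb(EE)IEC, against 2.17 and 2.52 in WT. It rose by 1.04 ± 0.21, with an interval of 0.53 to 1.56 and an adjusted p of 0.0339 (chr11:101193723-101193782, mm8). Fbp2, the muscle-type bisphosphatase, differed by -0.18, and Pck2, the mitochondrial phosphoenolpyruvate carboxykinase, by 0.28.

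Pcx, pyruvate carboxylase, lay nearest the threshold among the genes that missed it. It had 3.67 and 3.59 on the IKKb(EE)IEC arrays, against 4.73 and 4.24 on the WT arrays, and both IKKb(EE)IEC arrays were lower. The difference was -0.85 ± 0.22 with an adjusted p of 0.0562 (chr19:4621637-4621696, mm8). The enzyme feeds oxaloacetate to both gluconeogenesis and the citrate cycle.

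In the citrate cycle limma called 0 of 14 tested genes. Of these, 3 had an unadjusted p below 0.05, 1 higher and 2 lower, beside 2056 higher and 2688 lower of all 12437 tested genes. The median difference was -0.16 relative to the 75th percentile, beside -0.12 over all genes, and it was 0.09 after quantile normalization, 0.07 with normexp on negative controls and 0.08 in the authors' value table, so its sign depends on the scaling. Dlst, the succinyltransferase of the oxoglutarate complex, had 3.54 and 3.67 on the IKKb(EE)IEC arrays, against 3.06 and 2.80 on the WT arrays. Its difference was 0.67 ± 0.18 with an adjusted p of 0.0613 (chr12:86022863-86022922, mm8), the second nearest to the threshold. Dlst was called in 6 of 13 alternatives, which include both fits without a WT array. The others were the authors' value table (limma adjusted p 0.0368), normexp on negative controls (0.0126), the all-array filter (0.0464) and the mean over probes (0.0387). A second Dlst probe differed by 0.27. The third had -1.38 and -0.85 in IKKb(EE)IEC, against -2.64 and -2.44 in WT, where it was not well above background, which gives at least 1.17-fold higher in IKKb(EE)IEC.

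Fh1 (fumarase) and Idh1 (the cytosolic NADP-linked isocitrate dehydrogenase) differed by -0.58 and -0.49, with adjusted p-values of 0.0959 and 0.0972. The remaining 11 were small in size: Cs (citrate synthase) 0.15, Aco1 (cytosolic aconitase) 0.22, the Idh3a, Idh3b and Idh3g subunits of the NAD-linked enzyme -0.13, -0.24 and -0.20, Ogdh (oxoglutarate dehydrogenase) -0.08, the succinyl-CoA ligase subunits Sucla2, Suclg1 and Suclg2 -0.21, 0.20 and 0.13, and the malate dehydrogenases Mdh1 and Mdh2 -0.20 and -0.21. All 11 intervals contain 0.

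Me1, the cytosolic malic enzyme that makes NADPH, was read differently by the WT arrays. It had 1.75 and 1.31 in IKKb(EE)IEC, against 2.58 and -1.25 in WT, where it was not well above background on WT 2. A second Me1 probe had 1.03 and 0.56 in IKKb(EE)IEC, against 2.23 and -2.42 in WT. The difference of 0.87 ± 1.17 was not called. Without WT 1 it was 2.78 and without WT 2 it was -1.05, and both passed (adjusted p 2.42e-06 and 0.00351), so its direction rests on which WT array is kept.

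**Figure D3:**
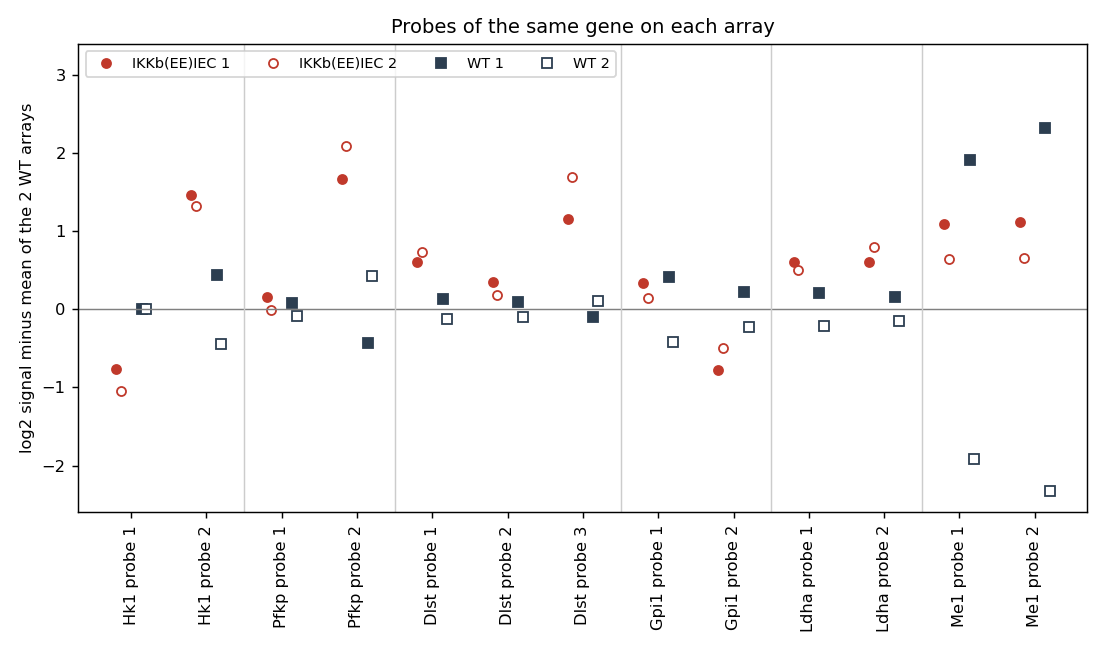
Log2 signal on each array, less the mean of the 2 WT arrays, for the passing probes of Hk1, Pfkp, Dlst, Gpi1, Ldha and Me1. Probes are numbered by brightness. The 2 Hk1 probes lie on opposite sides of WT (-0.90 and 1.40), the second Pfkp probe stands 1.88 above WT beside 0.08 for the first, and both Me1 probes split the WT arrays.

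Where a member had more than 1 passing probe, the probes mostly gave similar differences. Hk2, Fbp1, G6pc and Pklr have 1 probe each, so their calls could not be compared between probes. The 2 passing probes of Hk1 were called in opposite directions. Of 18 members with more than 1 passing probe, 11 had differences within 0.3 of each other and the median spread was 0.16. The spread exceeded 1 for Hk1, Pfkp and Dlst, and 5 members (Hk1, Gpi1, Cs, Ogdh and Aldoa) had probes of opposite sign. Of the 33 members not called, 25 had an interval that contains 0 and 25 an interval within 1 log2 unit of 0 both ways, so for 8 of them a change of at least 2-fold is within the interval.

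The 79 other genes of the pathways listed beside these were measured the same way. Of them 66 were tested, 4 rose and 6 fell, which is 15.2%, close to the share over all genes, with a median of 0.13. Among 16 tested isoforms 2 rose. Eno3, the muscle-type enolase, had 4.88 and 4.55 in IKKb(EE)IEC, against 1.76 and 2.07 in WT, a difference of 2.81 ± 0.21 (adjusted p 0.003). Tkfc, the triokinase that takes up the fructose-derived glyceraldehyde, had 5.42 and 5.09 in IKKb(EE)IEC, against 4.15 and 3.75 in WT, a difference of 1.31 (adjusted p 0.025).

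Among 19 tested regulators of flux 2 rose and 3 fell. Pdk4, the kinase that switches pyruvate dehydrogenase off, had -1.48 and -0.90 in IKKb(EE)IEC, against 0.97 and 2.11 in WT. It fell by 2.73 ± 0.42 on the log2 scale (adjusted p 0.018), and its difference was -1.72 with normexp on negative controls, -1.39 in the authors' value table and -1.23, not called, with plain normexp. Mlxipl, the carbohydrate-responsive transcription factor ChREBP, rose by 1.15 ± 0.21 (adjusted p 0.030), and Foxo1, a transcription factor of the fasting response, by 1.12 ± 0.18 (adjusted p 0.022). The difference of Foxo1 was 0.60 in the authors' value table and 0.62, not called, with the mean over probes. Pfkfb4, a bifunctional enzyme that sets fructose 2,6-bisphosphate, fell by 0.73 on the log2 scale (adjusted p 0.041) and was called in 6 of 13 alternatives. Esrra, a nuclear receptor of mitochondrial genes, differed by -0.70 (adjusted p 0.050, just under the threshold), but with the mean over probes its direction turned to 0.21 (adjusted p 0.374), and 4 of 13 alternatives called it. Of the genes that rose or fell here and among the isoforms, Eno3 was called in 12 of 13 alternatives, Pdk4 in 11, Tkfc and Mlxipl in 9 each and Foxo1 in 8. Pfkfb3, from the same family as Pfkfb4, had 4.34 and 4.24 in IKKb(EE)IEC, against 0.92 and 2.91 in WT, and did not pass (2.37 ± 0.62, adjusted p 0.058).

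Of 8 tested transporters 1 passed, Mpc2, part of the mitochondrial pyruvate carrier, which fell by 0.77 on the log2 scale (adjusted p 0.049). It was called in 5 of 13 alternatives and missed the threshold after quantile normalization (adjusted p 0.0772), the median shift (0.120), normexp on negative controls (0.0896) and with the replicate block (0.0542). Slc2a5, the fructose transporter GLUT5, and Slc16a3, a lactate exporter, did not pass, with differences of 1.49 and 1.34 and adjusted p-values of 0.058 and 0.071. limma called 0 of 8 remaining subunits of the complexes, 1 of which had an unadjusted p below 0.05, and 0 of 8 pentose phosphate genes, again with 1 such gene.

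**Figure D4:**
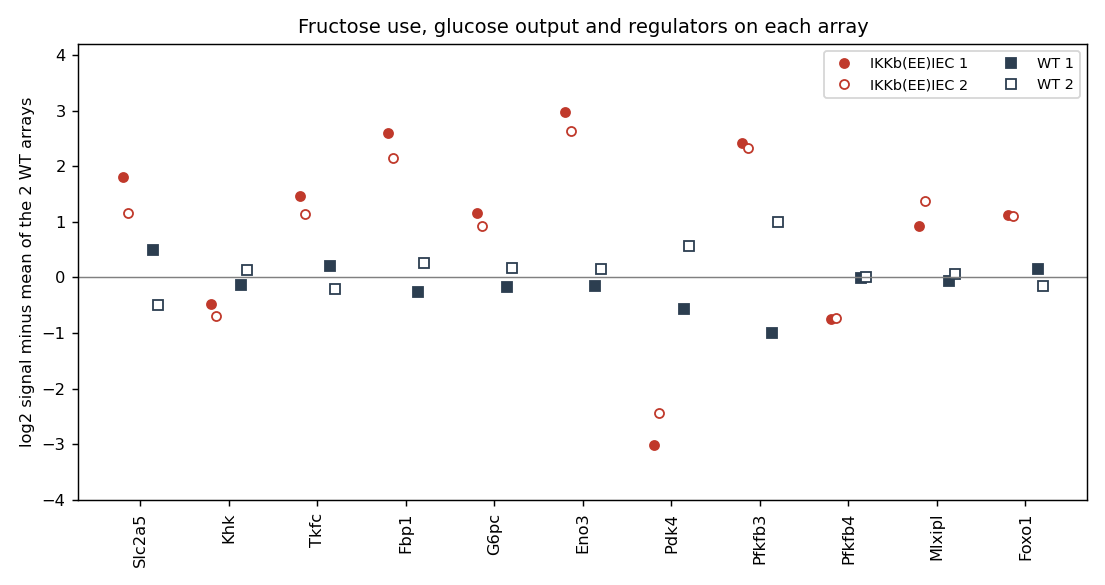
Log2 signal on each array, less the mean of the 2 WT arrays, for genes of fructose use, glucose output and flux control. Fbp1, G6pc, Tkfc, Eno3, Mlxipl and Foxo1 were called higher in IKKb(EE)IEC and Pdk4 and Pfkfb4 lower, while Slc2a5, Khk and Pfkfb3 were not called.

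Cell composition was read from marker lists. All 12 absorptive enterocyte markers were well above background on every array. Of them Anpep rose (1.10), Fabp2, Fabp1 and Lct fell (-1.56, -1.35 and -1.26) and 8 were not called, with a median of -0.22. Their summed linear signal was 6858 and 6878 in IKKb(EE)IEC, against 13552 and 14395 in WT. All 6 Paneth cell markers fell, with summed signals of 1450 and 2154 in IKKb(EE)IEC, against 13093 and 11794 in WT. Of 10 macrophage and dendritic cell markers 6 were called higher and 1 lower. All 10 were well above background on each IKKb(EE)IEC array, but only 4 on each WT array. The markers dim in WT thus passed the filter through the IKKb(EE)IEC arrays, and the size of their change is not measured. Without Lyz2, which Paneth cells share, the other 9 summed to 29.5 and 22.9 in IKKb(EE)IEC, against 8.0 and 9.07 in WT. These WT sums include signals not well above background. Pancreatic acinar markers had 1 of 3 tested genes lower, Clps at -4.01, and summed to 27.8 and 31.0 in IKKb(EE)IEC, against 455.3 and 200.02 in WT. Of 4 tested stromal and smooth muscle markers 1 fell, Myh11 at -0.72. limma called 0 of 8 tested T and NK cell markers (3 lower at an unadjusted p below 0.05), 0 of 2 B and plasma cell markers (0 at that p), 0 of 2 skeletal muscle markers (1 higher and 1 lower at that p) and 0 of 1 endothelial and red blood cell marker (0 at that p). The markers called higher or lower here moved with genotype beside Hk2, Fbp1, G6pc, Pklr and Hk1, and their part in those results was not tested. In a bulk sample, fewer cells of a type and less RNA per cell cannot be told apart. Fbp1, G6pc and Pklr are also liver genes: of 8 hepatocyte markers 4 (Alb, Ahsg, Fgb, Apoh) cleared background on WT 2 and on neither IKKb(EE)IEC array, and the summed list was 1.48 and 1.20 in IKKb(EE)IEC, against 2.33 and 13.1 in WT.

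The 75th percentile of the signal was 94.6 and 107.8 on the IKKb(EE)IEC arrays, against 60.3 and 66.1 on the WT arrays, and 40.8% and 41.1% of spots in IKKb(EE)IEC were well above background, against 34.3% and 36.0% in WT. Replicates correlated at 0.994 in IKKb(EE)IEC and 0.978 in WT, and arrays of different genotype at 0.937 to 0.947. Ikbkb, the gene of IKKb, had 0.33 and 0.34 in IKKb(EE)IEC, against -0.72 and -0.27 in WT. Its difference of 0.83 was not called by limma (adjusted p 0.0550). All arrays lay on 1 slide with the genotypes at separate positions, so position and genotype cannot be told apart.

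Hk2 was called in 12 of 13 other ways of processing the data, Fbp1 in 11, G6pc and Pklr in 9 each and Hk1 in 6. These tallies, like those of the other pathway genes, do not give each alternative equal weight. They include fits that leave 1 sample in a genotype, and the median shift, which gave every gene 1 common spread. For Hk1 both fits without a WT array are among the 6. Plain normexp background correction called none of the 5 and no gene of the array, with Hk2 at 1.90, Fbp1 at 2.23, G6pc at 0.78, Pklr at 0.53 and Hk1 at -0.83. Without a filter on dim probes G6pc (adjusted p 0.0628), Pklr (0.0601) and Hk1 (0.0628) missed the threshold, and in the authors' value table Pklr differed by 0.66. Without IKKb(EE)IEC replicate 1, Fbp1 was 2.15 (adjusted p 0.0513), G6pc 0.92 (0.253), Pklr 0.92 (0.237) and Hk1 -1.05 (0.187), and none of these passed. Without IKKb(EE)IEC replicate 2, G6pc was 1.17 (0.182), Pklr 1.09 (0.191) and Hk1 -0.76 (0.321), and these did not pass either. Each fit without an array leaves 1 sample in that genotype and takes the spread from the other genotype's pair alone: the WT pair, which is the more variable, when an IKKb(EE)IEC array is left out, and the IKKb(EE)IEC pair when a WT array is left out. The standard error of Fbp1, for example, was 0.37 without either IKKb(EE)IEC array and 0.22 without either WT array.

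**Figure D5:**
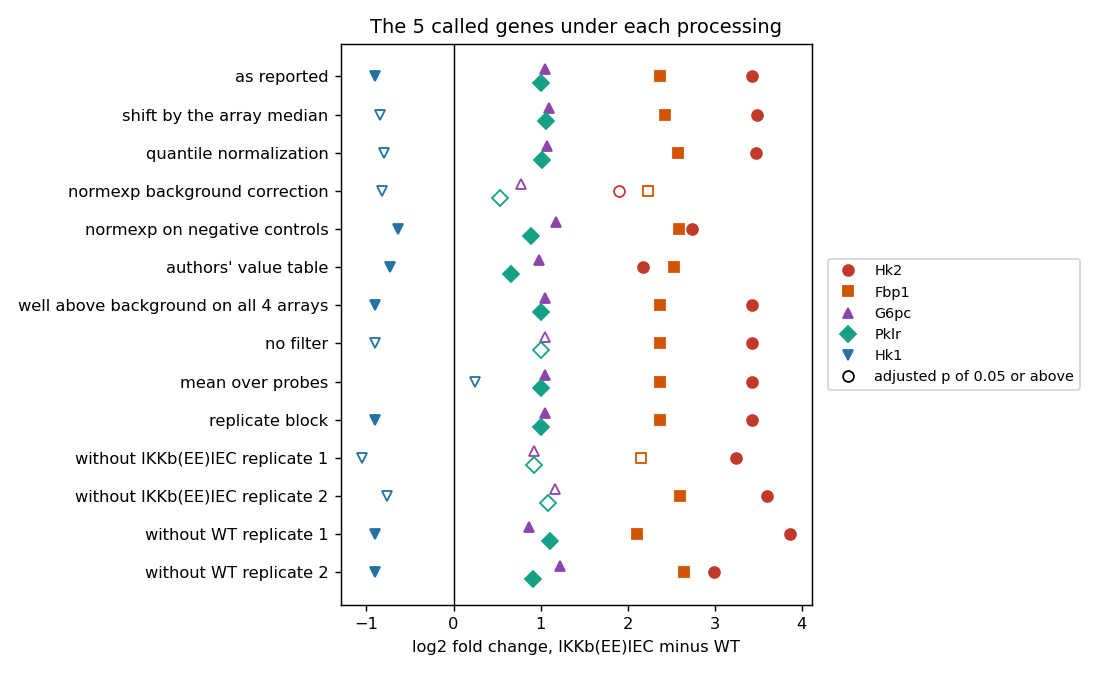
Log2 fold change, IKKb(EE)IEC minus WT, of the 5 called genes under the reported processing and 13 alternatives, one row each. Filled symbols passed an adjusted p of 0.05 and open ones did not. Hk2, Fbp1, G6pc and Pklr stay above 0 in every row, and Hk1 lies below 0 except with the mean over probes (0.25).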

How the data were processed

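Total RNA of 2 IKKb(EE)IEC and 2 WT samples, 250 ng each, was labelled with Cy3, per the labels' protocols, and read on Agilent design 014868, as the array headers name it. The deposited spot intensities are processed signals, with background subtracted, that per the file headers come from Agilent Feature Extraction 9.5.3.1 and had no recorded normalization between arrays. A table of 40913 probes that the authors deposited holds linear intensities, with column medians of 111.5 to 112.0, and its normalization is not stated in the labels or headers. The small number of arrays limits precision.

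The signal was put on the log2 scale, and the 75th percentile of the 43379 non-control spots of an array was subtracted from its values. Non-uniform spots (1 to 7 per array) were dropped, saturated spots (2 to 4) kept, and spots of a probe averaged. A probe passed when well above background on at least 2 of 4 arrays, which left 16394 of 41174 probes, and the passing probe with the highest mean stood for its gene. A probe's name follows its RefSeq accession in the GRCm38.p6 table for 24375 probes, another probe of the same listed name for 4647, and the listed name for 12152. Probe coordinates are those of the files (mm8). The comparison of genotypes used limma 3.58.1 (lmFit, then eBayes) under R 4.3.3, two-sided, with Benjamini-Hochberg adjustment over 12437 genes and no block, after a test on simulated data. A bound ("at least") uses the lowest signal well above background on the dim arrays.

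The members and the pathway and marker lists were chosen with earlier results of these data known. Values on every array are given for members called, for members changed by at least 1 log2 unit and for the 2 nearest the threshold, and for up to 4 called genes of each other list; further genes and probes with values were chosen after their values were seen. The alternatives tried are shifts by the median, quantile normalization, 2 normexp corrections, the authors' table, 2 filters, the mean over probes, a replicate block and leaving out each array. The normexp correction on negative controls and the probe-level fit were added after seeing the data. Some genes of the other pathway lists are counted in the totals but not reported here by name.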

Additional observations from a re-analysis of the deposited data

How the results depend on the processing

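The reported processing called 997 genes higher and 896 lower, 4 and 1 members, and 4 and 6 other pathway genes. Leaving out 1 array gave 165 to 2633 genes higher and 82 to 3542 lower, 1 to 10 and 0 to 6 members, and 1 to 22 and 0 to 11 other pathway genes. Without a filter the counts were 501 and 342 genes, 2 and 0 members, and 1 and 2 other pathway genes, over 27727 genes tested. Plain normexp, whose fit differed among arrays, gave 0 and 0 in all 3. Normexp on negative controls, chosen after seeing the data, gave 8 members higher and 12 and 3 other pathway genes. In either direction that setting called 23.7% of tested members, beside 16.4% of all tested genes. The shares were 19.4% beside 18.6% with the all-array filter and 15.8% beside 14.3% in the authors' table. The member share was the lower one after quantile normalization (10.5% beside 14.04%) and after the median shift. A shift by the array median gave 0 members lower and 11 and 3 other pathway genes. Quantile normalization gave 0 members and 3 other pathway genes lower, and the mean over probes 0 members lower. With probes well above background on all 4 arrays, 2 members were lower and 8 other pathway genes higher, and the authors' table gave 8 of these higher.

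Of genes called, 52.7% were higher, against 63.2% with the median shift, 67.4% with normexp on negative controls and 40.2% with the all-array filter. Hk1 turned to 0.25 with the mean over probes, because its 2 probes differ in sign. It also missed the threshold after a median shift (-0.85, adjusted p 0.0536) and after quantile normalization (-0.79, adjusted p 0.0529). Esrra turned to 0.21 with the mean over probes, and Me1 ran from -1.05 to 2.78 over the alternatives. After the median shift limma gave every gene 1 common spread (SE 0.32), so those p-values hold no spread of the single gene, and Me1 passed there (adjusted p 0.0320) although its groups overlap. The fits without a WT array take their spread from the closer IKKb(EE)IEC pair and those without an IKKb(EE)IEC array from the WT pair. The cause of the other changes was not tested.

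Replicate numbers only name samples: the correlation across 12437 genes of replicate 1 minus replicate 2 between the genotypes was 0.108. The replicate block gave 913 genes higher and 587 lower and 7 and 3 other pathway genes, and called the same 5 members. Dim probes limit the rest: Pfkl and Idh2 could not be tested, and Ldhb and Me1 were each not well above background on 1 WT array.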
